A study of Mus musculus with 23 samples.

Results

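The glucagon receptor gene Gcgr and 9 genes that carry or limit its cAMP signal were followed in mouse liver: Gnas, Prkaca, Prkar1a, Pde4b, Pde4d, Pde3b, Crem, Crtc2 and Sik1. They were taken by symbol from an RNA-seq table, where they are 10 of 24475 genes, and all 10 passed the filter on low values that left 11939 genes to test. The animals were male C57BL/6J mice on regular chow or on a high-fat diet (HFD). After 4 months of diet they were dosed with an antibody (10 mg/kg) during 3 weeks. The GCGR antibody, REGN1193, blocks the glucagon receptor. The other antibody, REGN496, was taken as the isotype control by elimination, since the study's design text names such a control without a code. On chow, 5 libraries had the control antibody (numbers 1 to 5) and 6 the GCGR antibody (6 to 11). On HFD, each antibody had 6 libraries, numbers 12 to 17 for the control and 18 to 23 for the GCGR antibody. The labels connect the experiment with the serum enzymes ALT and AST in mice made obese by diet. Whether each library came from its own mouse is not stated, so p values here measure the spread between samples, which may be technical in part.

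Glucagon is released from the pancreas in fasting, and its receptor on hepatocytes couples to the stimulatory G protein, whose alpha subunit is encoded by Gnas. The G protein switches on adenylyl cyclases, and the cAMP they make frees the catalytic subunits of protein kinase A (PKA) from its regulatory subunits. PKA phosphorylates the transcription factor CREB and lets its coactivator CRTC2 enter the nucleus, while salt-inducible kinases such as SIK1 hold CRTC2 in the cytoplasm. Phosphodiesterases break cAMP down, and some of them, together with Crem and Sik1, are themselves textbook targets of CREB. The comparisons asked how the RNA of these genes stood under receptor blockade on each diet, and on HFD against chow under each antibody. The antibody acts on the receptor protein, so the level of Gcgr RNA is no check of the treatment.

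Levels are in RPKM (reads relative to gene length and to the library's total). Differences are log2 fold changes of RPKM + 1 ± SE from limma, and a gene is called higher or lower where its Benjamini-Hochberg adjusted p over all tested genes was under 0.05. Relative depth ran from 0.865 to 1.145 over the libraries. The steps between low values place the depth at about 13900000 to 18400000 reads per library, at which 1 RPKM is about 16.1 reads per kilobase. Libraries 19 and 20, both of GCGR antibody on HFD, correlated least with the rest of their group, with a mean r of 0.9800 and 0.9789. The 6 hepatocyte markers in the table summed to between 46594 and 64588 RPKM. The libraries are of bulk tissue, so fewer cells of a type and less RNA per cell cannot be told apart.

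The members spanned a wide range of levels. Gnas was the most abundant at a mean of 244 RPKM over the 23 libraries, above 97.3% of tested genes, and Gcgr followed at 114 RPKM. The PKA subunit genes came next, Prkar1a at 32.7 RPKM and Prkaca at 27.0 RPKM. Then came Pde3b at 13.2 RPKM, Crtc2 at 9.89 RPKM and Crem at 7.05 RPKM. Sik1 at 3.21 RPKM, Pde4b at 2.66 RPKM and Pde4d at 1.02 RPKM were the lowest. Of the 9 pairs of neighbours in this order, 4 kept it in 23 of 23 libraries: Gnas above Gcgr, Gcgr above Prkar1a, Prkaca above Pde3b and Crem above Sik1. Over all libraries the ranges of Crem and Sik1 still overlapped slightly, and those of the other 3 pairs did not. The neighbours whose order changed most often were Sik1 and Pde4b, with Sik1 the higher in 17 of 23 libraries, and Prkar1a and Prkaca, with Prkar1a the higher in 18 of 23.

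**Figure D1:**
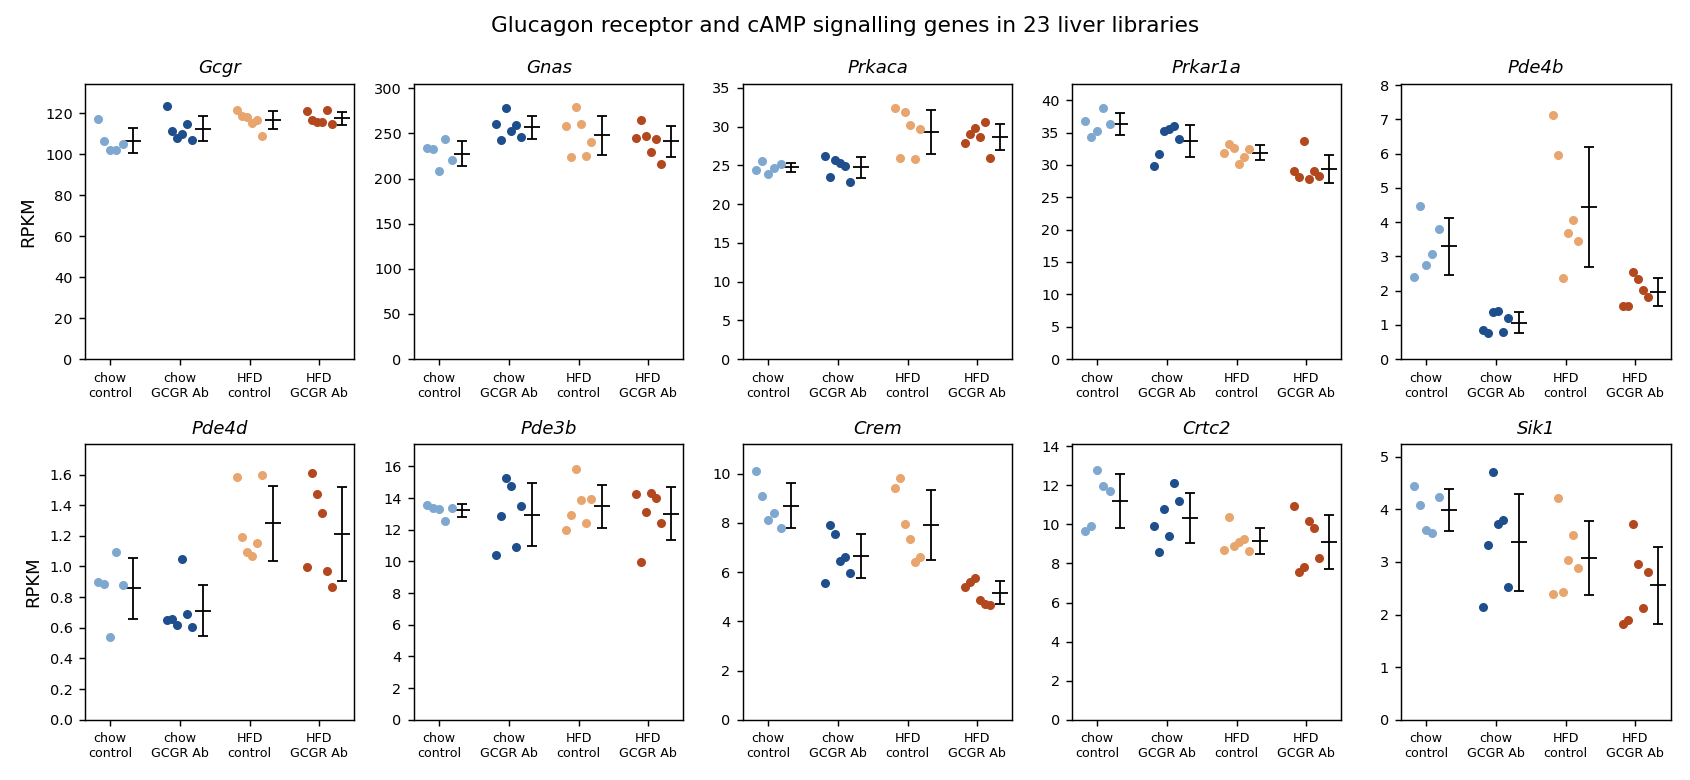
RPKM of each of the 10 genes (vertical axes from 0) in the 23 libraries, 1 point per library by diet and antibody group, with the group mean and SD as bars beside the points. Pde4b is low in all 6 libraries of GCGR antibody on chow (0.757 to 1.41 RPKM), and Crem is low in all 6 of GCGR antibody on HFD (4.66 to 5.77 RPKM).

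Under the GCGR antibody, 2 members fell and none rose. Pde4b fell on both diets and Crem fell on HFD. On chow, 1 of 10 members was called lower and 0 of 10 higher, where 0.553% of all tested genes were called lower and 0.394% higher. On HFD, 2 of 10 were called lower and 0 of 10 higher, where 2.12% of all tested genes were called lower and 5.33% higher. That surplus of higher genes depended on the scaling of the libraries: 636 genes were higher and 253 lower as deposited, against 377 and 503 after median-ratio scaling and 377 and 412 after quantile normalization. Both members were called lower under either scaling. At an unadjusted limma p under 0.05 stood 3 members on each diet, Gnas, Crem and Pde4b on chow and Prkar1a, Crem and Pde4b on HFD, where 10.8% and 24% of all tested genes stood. The share on HFD is near that background. The members' median difference was -0.10 on chow and -0.05 on HFD, beside 0.03 and 0.05 over all tested genes. No member was called for a difference between the antibody effects on HFD and on chow, where 0.201% of all tested genes were called, and 1 of 10 members, Gnas, had an unadjusted p under 0.05, as did 9.86% of all tested genes. The called genes split into 15 higher and 9 lower as deposited, 7 and 10 after median-ratio scaling and 5 and 10 after quantile normalization.

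**Figure D2:**
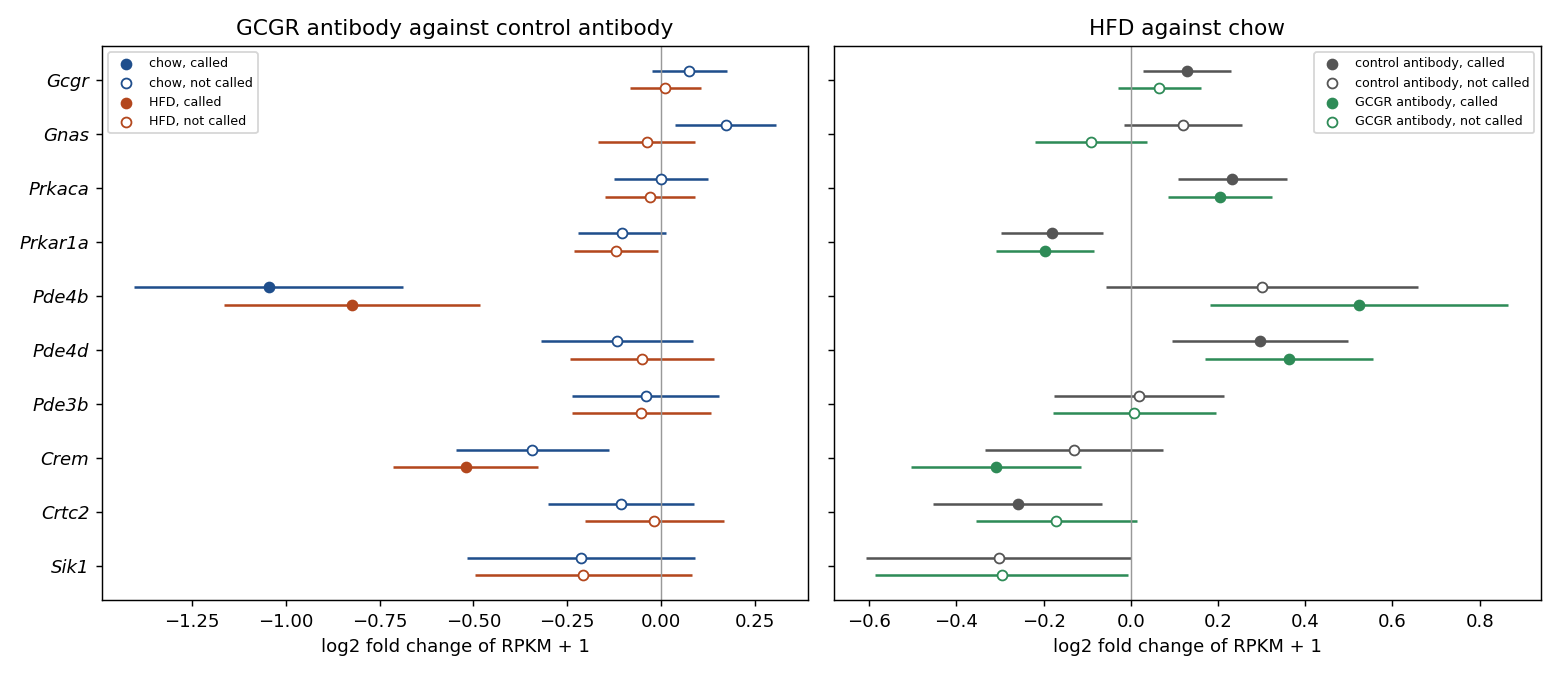
Log2 fold change of RPKM + 1 (horizontal axes) with its 95% confidence interval for each of the 10 genes, the GCGR antibody against the control antibody on the left and HFD against chow on the right; filled points are called and open points are not. Pde4b lies at -1.05 on chow and -0.82 on HFD in the antibody panel, and the other filled point there is Crem on HFD at -0.52.

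Gcgr (gene ID 14527, chr11:120529185-120538989, GRCm38), which encodes the blocked receptor, was not called in either antibody comparison. On chow it read 117, 106, 102, 102 and 105 RPKM under control antibody and ranged from 107 to 123 RPKM (median 110) under GCGR antibody. On HFD it ranged from 109 to 122 RPKM (median 117) under control antibody and from 115 to 122 RPKM (median 116) under GCGR antibody. The groups overlapped on both diets. The difference was 0.08 (95% interval -0.02 to 0.18, adjusted p = 0.623) on chow and 0.01 (-0.08 to 0.11, adjusted p = 0.898) on HFD. Between diets, Gcgr was called 0.13 ± 0.05 higher on HFD under control antibody (adjusted p = 0.0472), from a mean of 107 ± 6.11 RPKM (SD, n = 5) to 117 ± 4.36 RPKM (SD, n = 6). This call stood in 7 of 19 limma alternatives, and quantile normalization left a difference of 0.03 with an adjusted p of 0.602. Under GCGR antibody the diet difference of Gcgr was 0.07 (adjusted p = 0.297).

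Gnas (gene ID 14683, chr2:174284320-174346744), the alpha subunit of the stimulatory G protein, read 208 to 244 RPKM (median 233) under control antibody on chow and 243 to 278 RPKM (median 256) under GCGR antibody on chow. The lowest treated library, at 243 RPKM, lay just under the highest control library. The difference of 0.17 ± 0.07 (95% interval 0.04 to 0.31) was not called, with an adjusted p of 0.329. On HFD the control libraries spread from 224 to 279 RPKM and the treated ones from 216 to 265 RPKM, a difference of -0.04 (-0.17 to 0.09, adjusted p = 0.75). Between diets Gnas differed by 0.12 (-0.02 to 0.25, adjusted p = 0.171) under control antibody, called after median-ratio scaling (0.0455), and by -0.09 (-0.22 to 0.04, adjusted p = 0.282) under GCGR antibody. Gnas is a complex locus with several first exons and an antisense gene, and the strand setting of the counting is not given in the sources used here, so its level may hold reads of other transcripts of the locus.

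The rest of the receptor, G protein and cyclase list is known for passing on, inhibiting or ending the signal. Of its 29 genes in the table, 23 were tested, Gcgr and Gnas among them. On chow limma called 0 under the antibody, and 5 had an unadjusted p under 0.05, as did 10.8% of all tested genes. On HFD 1 was called higher, Adcy7, an adenylyl cyclase known from blood cells, at 0.25 ± 0.06 (adjusted p = 0.0194, 0.381 to 0.643 RPKM). The call of Adcy7 was lost when the 2 HFD groups were fitted alone (adjusted p = 0.0641). Under the antibody on HFD, 5.33% of all tested genes were called higher. Between diets under control antibody, 4 were called higher (Gcgr, Adcy6, Gnai2 and Gng5) and 3 lower (Gnai1, Grk4 and Grk5). In that comparison 11.6% of all tested genes were higher and 18.3% lower. Adcy6, Grk4 and Grk5 were called in 9, 8 and 6 of 19 limma alternatives. Gnai1, an inhibitory alpha subunit, fell by 0.52 under control antibody and by 0.82 under GCGR antibody (adjusted p = 0.00461 and 4.33e-05). Gnai2, another inhibitory subunit, rose by 0.30 and 0.25 in the same comparisons, the second call standing in 15 of 21 limma alternatives. Under GCGR antibody Gng5 was also called higher on HFD, and the cyclase Adcy4 and the arrestin Arrb2 were called lower. There 13.2% of all tested genes were higher and 16.6% lower. Of 14 other receptors that couple to the same G protein, 4 were expressed well enough to test. Adrb3, the beta-3 adrenergic receptor best known from adipocytes, rose under the antibody on HFD from 2.67 to 4.75 RPKM (0.67 ± 0.12, adjusted p = 0.0012), and on HFD under control antibody it was called lower than on chow at -0.37 while Pth1r was called higher at 0.28. The diet calls of Adrb3 and Pth1r stood in 8 and 11 of 19 limma alternatives.

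The PKA genes differed by diet. Prkaca (gene ID 18747, chr8:83972978-83996444), the main catalytic subunit, rose on HFD under both antibodies, and Prkar1a (gene ID 19084, chr11:109649023-109669663), a regulatory subunit that holds the kinase inactive, fell. Under control antibody Prkaca read 24.3, 25.6, 23.9, 24.7 and 25.1 RPKM on chow and 25.8 to 32.4 RPKM (median 29.96) on HFD, without overlap, for a difference of 0.23 ± 0.06 (adjusted p = 0.00632). Under GCGR antibody it went from 22.8 to 26.3 RPKM (median 25.1) on chow to 26.0 to 30.7 RPKM (median 28.9) on HFD, with a small overlap, for a difference of 0.20 ± 0.06 (adjusted p = 0.0105). The antibody itself left Prkaca at 0.00 (-0.13 to 0.12, adjusted p = 1) on chow and -0.03 (-0.15 to 0.09, adjusted p = 0.796) on HFD.

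Prkar1a read 36.7, 34.4, 35.2, 38.8 and 36.4 RPKM on chow with the control antibody and 30.1 to 33.2 RPKM (median 32.1) on HFD. These groups did not overlap, and the difference was -0.18 ± 0.06 (adjusted p = 0.0199). Without library 4, the highest of the chow controls, the call was lost (adjusted p = 0.0629). Under GCGR antibody Prkar1a ranged from 29.9 to 36.1 RPKM on chow and from 27.8 to 33.7 RPKM on HFD, and it fell by 0.20 ± 0.05 (adjusted p = 0.00871). Under the antibody on HFD its difference of -0.12 ± 0.05 (-0.23 to -0.01) was not called (adjusted p = 0.175), and median-ratio scaling brought it to -0.18 with an adjusted p of 0.0153. On chow the antibody difference was -0.10 (-0.22 to 0.01, adjusted p = 0.539).

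The ratio of Prkaca to Prkar1a RPKM joins 2 genes called in opposite directions between diets, and either gene alone can move it. It ran from 0.636 to 0.744 under control antibody on chow and from 0.783 to 1.02 on HFD. Under GCGR antibody it ran from 0.669 to 0.880 on chow and from 0.885 to 1.06 on HFD. The groups of the 2 diets did not overlap under either antibody, which adds no separate result because both genes were already called by diet. Under GCGR antibody the gap was narrow, between 0.880 in chow library 6 and 0.885 in HFD library 20. Prkaca and Prkar1a each overlapped there, with Prkar1a at 29.9 RPKM in library 6 and 33.7 RPKM in library 20. Prkaca made up 71.1% to 76.5% of the summed catalytic subunit RPKM in the group means, and Prkar1a 61.2% to 64.3% of the regulatory subunits. Summed over the family, the ratio of catalytic to regulatory subunits was 0.603 ± 0.0261 (SD, n = 5) with the control antibody and 0.635 ± 0.0291 (n = 6) with the GCGR antibody on chow, and 0.772 ± 0.0478 and 0.816 ± 0.0562 (n = 6 each) on HFD.

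**Figure D3:**
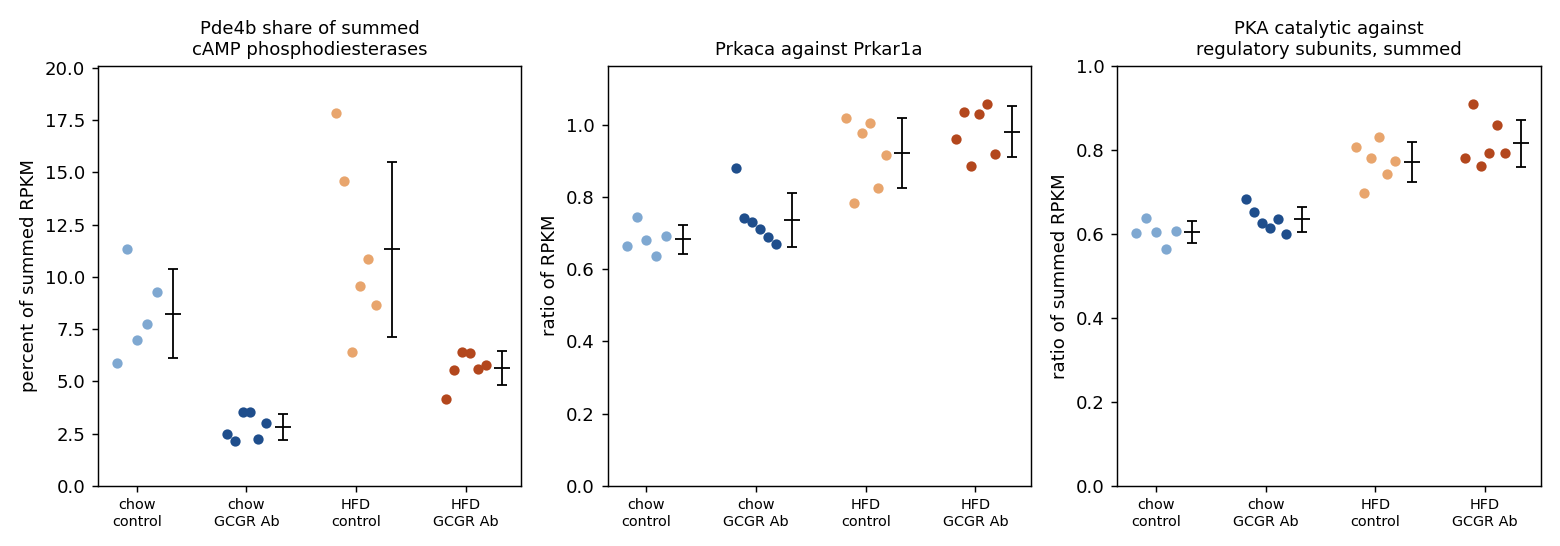
Per library, by group and with mean and SD beside the points: the share of Pde4b in the summed RPKM of the cAMP phosphodiesterase list (percent), the ratio of Prkaca to Prkar1a RPKM, and the ratio of summed PKA catalytic to regulatory subunit RPKM, all from 0. The Pde4b share is lowest under GCGR antibody on chow (2.14% to 3.54%), and the Prkaca to Prkar1a ratio is at or above 0.783 in each HFD library.

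Of 22 PKA, anchoring protein and Epac genes, 16 were tested. Limma called 0 of them under the antibody on chow, with 1 at an unadjusted p under 0.05, and 1 on HFD, Akap9, a scaffold that binds PKA at the Golgi and centrosome, which rose by 0.22 ± 0.06 (adjusted p = 0.0199). That call was lost after quantile normalization (adjusted p = 0.0554) and without library 16 (0.0507). Of all tested genes, 10.8% had an unadjusted p under 0.05 on chow, and 5.33% were called higher on HFD. On HFD under control antibody 1 was higher, Prkaca, and 7 were lower: Prkar1a, Prkar2a, Akap8, Akap9, Akap11, Akap13 and Rapgef4. In that comparison 11.6% of all tested genes were higher and 18.3% lower. Rapgef4, which encodes the cAMP-binding exchange factor Epac2, fell the most, from 38.2 ± 7.22 RPKM (SD, n = 5) to 17.9 RPKM (n = 6, libraries from 13.8 to 19.9 RPKM), a difference of -1.04 ± 0.18 (adjusted p = 3.18e-04). Under GCGR antibody 2 were higher on HFD (Pkig, a PKA inhibitor, and Prkaca) and 4 lower (Prkar1a, Akap8, Akap9 and Rapgef4, the last at -0.81 ± 0.18, adjusted p = 0.00149). There 13.2% of all tested genes were higher and 16.6% lower. The call of Pkig stood in 9 of 21 limma alternatives, with an adjusted p of 0.178 without libraries 19 and 20, and that of Prkar2a under control antibody in 14 of 19. Akap8 lost its call under GCGR antibody without libraries 19 and 20 (0.0801).

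Pde4b (gene ID 18578, chr4:102087332-102607275), a cAMP-specific phosphodiesterase induced by cAMP in many cells, showed the largest antibody difference among the members. On chow the control libraries read 2.39, 4.46, 2.75, 3.06 and 3.78 RPKM and the libraries of GCGR antibody 0.850, 0.757, 1.38, 1.41, 0.798 and 1.19 RPKM. Each treated library lay below each control library, a separation that 2.5% of all tested genes showed in this comparison. The mean fell from 3.29 ± 0.832 RPKM (SD, n = 5) to 1.07 ± 0.300 RPKM (n = 6), a difference of -1.05 ± 0.17 (95% interval -1.40 to -0.69, adjusted p = 0.00191). On HFD the control libraries read 7.13, 5.95, 2.36, 3.68, 4.07 and 3.43 RPKM and the treated libraries 1.55, 1.56, 2.53, 2.33, 2.02 and 1.81 RPKM. Here the groups overlapped through control library 14, at 2.36 RPKM, which lay under treated library 20, at 2.53 RPKM. The mean fell from 4.44 ± 1.76 to 1.97 ± 0.404 RPKM (SD, n = 6 each), a difference of -0.82 ± 0.17 (-1.16 to -0.48, adjusted p = 0.00302).

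At these low levels the added 1 RPKM shrinks the fold: with 0.1 added, the Pde4b difference was -1.55 on chow and -1.07 on HFD. Pde4b was called in all 19 limma alternatives on chow and all 21 on HFD. In the exact 2-sided rank-sum test it had an unadjusted p of 0.00433 on each diet, which on chow is the smallest that 5 against 6 libraries allow. After adjustment that test called 0 genes over the whole table on either diet, with 1092 on chow and 2056 on HFD at an unadjusted p under 0.05. The antibody effects on the 2 diets differed by 0.22 ± 0.24 (-0.27 to 0.72, adjusted p = 0.79). On HFD against chow, Pde4b was called higher under GCGR antibody (0.52 ± 0.17, adjusted p = 0.020), without overlap between 0.757 to 1.41 RPKM on chow and 1.55 to 2.53 RPKM on HFD. Under control antibody the diet difference was 0.30 (-0.06 to 0.66, adjusted p = 0.195).

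Promoter sequence is shown for Pde4b because it led the antibody comparisons, and for Prkar1a because it held the full element. CREB binds the palindrome TGACGTCA or its shorter part TGACG, which reads CGTCA in the given sequence where it lies on the opposite strand. All 3 strings were searched in the given sequence, from 250 bases before to 50 after each start in RefSeq (GRCm38.p6). For 6 members, Gcgr, Gnas, Prkaca, Prkar1a, Pde4b and Pde4d, the table held 18 promoters, and 4 of these are of Pde4b. The sequences are on the plus strand, 5′ to 3′, with the matching letters in capitals. The Pde4b stretch is the 250 bases before the start at chr4:102421305-102421554, and the Prkar1a stretch is 30 bases at chr11:109650889-109650918.
Pde4b: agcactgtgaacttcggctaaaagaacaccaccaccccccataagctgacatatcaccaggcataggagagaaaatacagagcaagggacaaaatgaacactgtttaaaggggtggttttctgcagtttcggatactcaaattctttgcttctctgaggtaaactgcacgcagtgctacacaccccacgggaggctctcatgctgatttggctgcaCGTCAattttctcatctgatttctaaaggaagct
Prkar1a: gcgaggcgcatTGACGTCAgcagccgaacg

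In Pde4b the CGTCA begins 34 bases before the start, and the other 3 of its promoters held no match. The full palindrome was found in 2 of the 18 promoters, both of Prkar1a with overlapping windows that share the match, and it occurred in 1.79% of all 32851 promoters in the table. Any match, the palindrome included, was found in 8 of 18 against 20.8% of all promoters. The 8 are not separate matches: 2 overlapping Gnas windows hold the same CGTCA, and the 2 Prkar1a windows share their matches. The 2 shares are therefore not read as a difference. These matches describe letters in the windows, and the RPKM table does not tell which promoter was used.

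Pde3b and Pde4d were not called in the antibody comparisons. Pde3b (gene ID 18576, chr7:114415222-114537938), the insulin-regulated enzyme of liver and fat, was the most abundant of the 3 and made up 33.1% to 37.3% of the family's summed RPKM in the group means. It read 12.5 to 13.6 RPKM under control antibody on chow, 10.4 to 15.2 RPKM under GCGR antibody on chow, 11.95 to 15.8 RPKM under control antibody on HFD and 9.96 to 14.3 RPKM under GCGR antibody on HFD. All 4 groups overlapped, and the antibody difference was -0.04 (-0.24 to 0.15, adjusted p = 0.927) on chow and -0.05 (-0.24 to 0.13, adjusted p = 0.766) on HFD. The diet difference was 0.02 (-0.18 to 0.21, adjusted p = 0.898) under control antibody and 0.01 (-0.18 to 0.19, adjusted p = 0.957) under GCGR antibody.

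Pde4d (gene ID 238871, chr13:108654177-109955969), the close relative of Pde4b, rose with diet. Under control antibody it read 0.897, 0.887, 0.538, 1.09 and 0.879 RPKM on chow and 1.07 to 1.60 RPKM (median 1.17) on HFD, for a difference of 0.30 ± 0.10 (adjusted p = 0.0254). This call was lost without library 3 (adjusted p = 0.0907), library 12 (0.0621) or library 17 (0.0623). Under GCGR antibody it went from 0.608 to 1.05 RPKM (median 0.653) on chow to 0.868 to 1.61 RPKM (median 1.17) on HFD, a difference of 0.36 ± 0.09 (adjusted p = 0.00556). The antibody difference of Pde4d was -0.12 (-0.32 to 0.08, adjusted p = 0.728) on chow and -0.05 (-0.24 to 0.14, adjusted p = 0.779) on HFD.

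As a share of the summed RPKM of the 16 listed cAMP phosphodiesterases, Pde4b went from 8.24% ± 2.13 (SD, n = 5) to 2.81% ± 0.625 (n = 6) under the antibody on chow and from 11.3% ± 4.18 to 5.64% ± 0.826 (n = 6 each) on HFD. The sum itself went from 40.0 ± 0.661 to 37.4 ± 2.53 RPKM with the antibody on chow, and from 38.9 ± 1.51 to 34.9 ± 4.21 RPKM on HFD. Of the 16 genes, 10 were tested. On chow the antibody lowered 1, Pde4b, and on HFD it lowered 2, Pde4b and Pde7b, a cAMP-specific enzyme that went from 1.23 to 0.834 RPKM (-0.28 ± 0.07, adjusted p = 0.0204). The Pde7b call was lost when the 2 HFD groups were fitted alone (adjusted p = 0.0749) and without library 16 (0.0511). Of all tested genes, 0.553% were called lower under the antibody on chow and 2.12% on HFD. Between diets, Pde4c and Pde8a were called lower on HFD under both antibodies, Pde4d higher under both, and Pde1a and Pde4b higher under GCGR antibody. In these comparisons 11.6% of all tested genes were higher and 18.3% lower under control antibody, and 13.2% and 16.6% under GCGR antibody. The Pde8a calls stood in 15 of 19 limma alternatives under control antibody and 11 of 21 under GCGR antibody, and the Pde4c call under control antibody in 16 of 19.

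Crem (gene ID 12916) encodes activators and, from an internal promoter, the short repressor ICER that cAMP induces. The table gives 1 value for all its transcripts. On HFD the control libraries read 9.41, 9.84, 7.94, 7.32, 6.42 and 6.61 RPKM and the libraries of GCGR antibody 5.38, 5.59, 5.77, 4.88, 4.72 and 4.66 RPKM. No treated library reached a control library, a separation that 2.85% of all tested genes showed in this comparison. The mean fell from 7.92 ± 1.43 to 5.17 ± 0.475 RPKM (SD, n = 6 each), a difference of -0.52 ± 0.09 (-0.72 to -0.33, adjusted p = 0.00119), and the exact 2-sided rank-sum test gave an unadjusted p of 0.00216, the smallest that 6 against 6 allow. Crem was called on HFD in all 21 limma alternatives.

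On chow Crem read 10.1, 9.10, 8.12, 8.40 and 7.79 RPKM under control antibody and 5.57, 7.91, 7.53, 6.43, 6.60 and 5.96 RPKM under GCGR antibody. Treated library 7, at 7.91 RPKM, lay above control library 5, at 7.79 RPKM, and the other libraries were apart. The difference of -0.34 ± 0.10 (-0.55 to -0.14) was not called (adjusted p = 0.118), nor in any of 19 limma alternatives. The antibody effects on the 2 diets differed by -0.18 ± 0.14 (-0.46 to 0.10, adjusted p = 0.708), so a difference between the diets was not shown. Between diets, Crem was called lower on HFD under GCGR antibody (-0.31 ± 0.09, adjusted p = 0.0163), with overlap. Under control antibody the diet difference was -0.13 (-0.33 to 0.07, adjusted p = 0.333).

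Crtc2 (gene ID 74343, chr3:90253858-90264125), the CREB coactivator of gluconeogenesis, read 9.66, 9.90, 12.8, 11.96 and 11.7 RPKM on chow with the control antibody and 8.63 to 10.4 RPKM (median 8.99) on HFD. The groups overlapped through HFD library 13, and the difference of -0.26 ± 0.09 was called (adjusted p = 0.0398). The call stood in 8 of 19 limma alternatives, with adjusted p up to 0.116 (without library 3), and was lost after either other scaling. Under GCGR antibody the diet difference of Crtc2 was -0.17 (-0.36 to 0.01, adjusted p = 0.153). The antibody difference was -0.11 (-0.30 to 0.09, adjusted p = 0.746) on chow and -0.02 (-0.20 to 0.17, adjusted p = 0.928) on HFD.

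Sik1 (gene ID 17691, chr17:31844248-31855804), the cAMP-induced kinase that restrains CRTC2, was called in none of the comparisons. It ranged from 3.55 to 4.45 RPKM under control antibody and 2.15 to 4.70 RPKM under GCGR antibody on chow, and from 2.39 to 4.22 RPKM and 1.82 to 3.71 RPKM on HFD. The antibody difference was -0.21 on both diets, with intervals of -0.52 to 0.09 (adjusted p = 0.652) on chow and -0.50 to 0.08 (adjusted p = 0.379) on HFD. The diet difference was -0.30 under each antibody (adjusted p = 0.123 and 0.114), of which the first was called with the 2 groups fitted alone (0.0489) and the other without library 6 (0.0377) or library 20 (0.0366).

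Of 14 CREB factors, coactivators and their kinases and phosphatases, all 14 were tested. Under the antibody limma called 0 on chow, with 1, Crem, at an unadjusted p under 0.05, and 1, Crem, on HFD. Of all tested genes, 10.8% had an unadjusted p under 0.05 on chow, and 2.12% were called lower on HFD. On HFD under control antibody, 7 were called lower and 0 higher: Crtc2, Atf1, Crtc3, Sik2, Sik3 and the histone acetyltransferases Crebbp and Ep300. Crebbp, the CREB-binding protein, led them at -0.36 ± 0.07 (4.85 to 3.55 RPKM, adjusted p = 4.77e-04), and Crtc3 and Sik2 were called in 8 and 14 of 19 limma alternatives. In that comparison 18.3% of all tested genes were lower and 11.6% higher. The list's median was -0.24, beside -0.03 over all tested genes. Under GCGR antibody 2 were lower on HFD, Crebbp (-0.19 ± 0.06, adjusted p = 0.024) and Crem, where 16.6% of all tested genes were lower.

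Between diets as a whole, 5 of 10 members were called under each antibody. Under control antibody 3 were higher on HFD (Gcgr, Prkaca and Pde4d) and 2 lower (Prkar1a and Crtc2), where 11.6% of all tested genes were higher and 18.3% lower. The split of all genes was 1390 higher and 2183 lower as deposited and 1805 and 1818 after median-ratio scaling. Under GCGR antibody 3 were higher (Prkaca, Pde4b and Pde4d) and 2 lower (Prkar1a and Crem), where 13.2% were higher and 16.6% lower. Groups did not overlap for 2 of 10 members under control antibody and 1 of 10 under GCGR antibody, where 15.9% and 10.3% of all tested genes did not overlap. The members' median diet difference was 0.07 and -0.04, beside -0.03 and -0.02 over all tested genes. Each of these comparisons shares its groups with the antibody comparisons, so a group that lies high or low enters both.

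Few genes of a list of cAMP-responsive genes passed the test under the antibody, and those that did were lower. Of 19 listed genes, 16 were tested, Pde4b, Pde4d, Crem and Sik1 among them. On chow 1 was lower (Pde4b) and 0 higher, and on HFD 3 were lower (Pde4b, Crem and Kiss1) and 0 higher. Of all tested genes, 0.553% were called lower and 0.394% higher on chow, and 2.12% lower and 5.33% higher on HFD. At an unadjusted p under 0.05 stood 7 of 16 on chow and 5 of 16 on HFD, beside 10.8% and 24% of all tested genes. The list's median difference was -0.25 on chow and -0.23 on HFD, beside 0.03 and 0.05 over all tested genes. Kiss1, which encodes the peptide kisspeptin, went from 0.893 ± 0.342 to 0.285 ± 0.164 RPKM on HFD (SD, n = 6 each; -0.55 ± 0.11, adjusted p = 0.00348). Its median was 0.873 RPKM under control antibody on HFD and 0.244 RPKM under GCGR antibody there. On chow its medians were 0.436 RPKM (control) and 0.133 RPKM (GCGR antibody). Kiss1 thus passed the filter at 0.5 RPKM largely through the group where it was high, and its call leans on that group. The gluconeogenic gene Pck1 went from 621 ± 226 RPKM (SD, n = 5) to 397 ± 227 (n = 6) on chow and from 517 ± 82.1 to 317 ± 190 RPKM (n = 6 each) on HFD, with adjusted p of 0.434 and 0.131. Tat, which breaks down tyrosine, had a difference of -0.98 ± 0.27 (adjusted p = 0.106) on chow and of -0.71 ± 0.26 (adjusted p = 0.0984) on HFD. Other genes of the list stood higher on 1 or both diets without being called. Dusp1, a phosphatase gene, went from 24.7 ± 8.59 to 32.2 ± 20.8 RPKM on chow and from 15.8 ± 9.50 to 27.3 ± 13.5 RPKM on HFD. On chow Fos and Junb differed by 0.81 ± 0.58 and 0.44 ± 0.33 (adjusted p = 0.665 and 0.688). On HFD the mean of Junb was lower, going from 14.2 ± 8.98 to 9.73 ± 2.92 RPKM. Fos there had means of 1.87 and 1.72 RPKM and medians of 0.647 and 1.31 RPKM (control and GCGR antibody). Pck1, Tat, Dusp1, Fos and Junb were chosen for mention here after their values were seen.

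**Figure D4:**
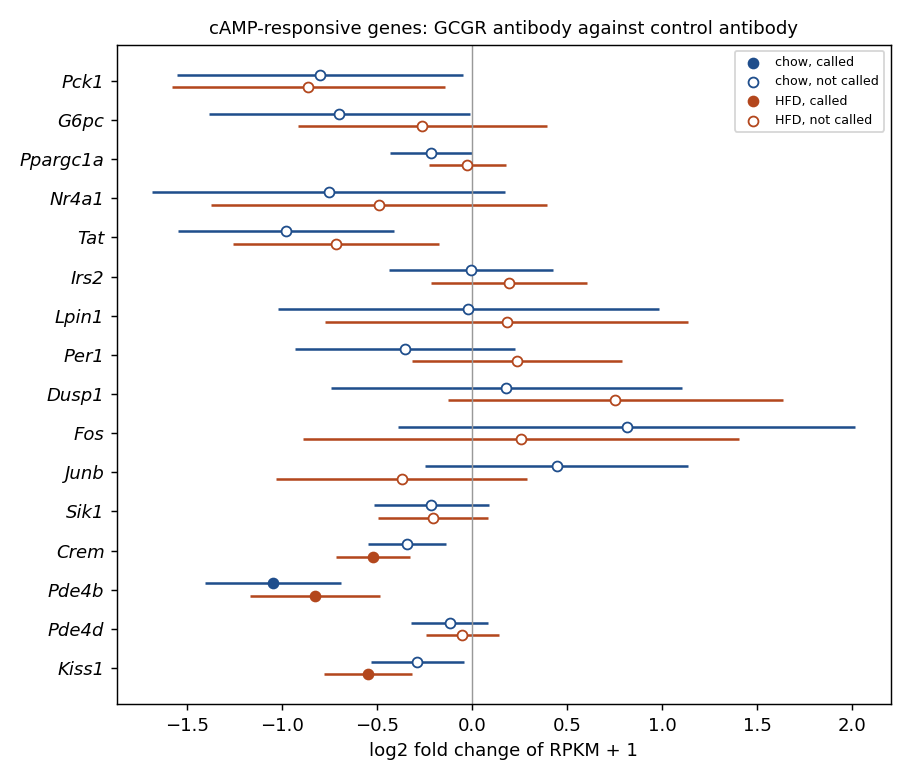
Log2 fold change of RPKM + 1 with its 95% confidence interval for the 16 tested cAMP-responsive genes, GCGR antibody against control antibody on each diet; filled points are called. Pde4b is filled on both diets, Crem (-0.52) and Kiss1 (-0.55) on HFD, and the other genes are open, several with wide intervals.

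Between diets, the cAMP-responsive list held 3 higher (Kiss1, Pde4d and Per1) and 1 lower (Irs2) on HFD under control antibody, and 5 higher (Lpin1, Pde4b, Pde4d, Per1 and Ppargc1a) and 2 lower (Crem and Junb) under GCGR antibody. The Irs2 call stood in 13 of 19 limma alternatives and the Lpin1 call in 12 of 21. In Lpin1, library 20 stood at 121 RPKM where its group's median was 20.98 RPKM, and the difference went from 1.36 to 0.86 (adjusted p = 0.0585) without that library and to 0.60 (0.194) without libraries 19 and 20. Circadian clock genes moved with diet as well. Of 17 tested, 6 were higher (Ciart, Dbp, Per1, Per2, Per3 and Tef) and 3 lower (Arntl, Clock and Npas2) under control antibody. Under GCGR antibody these 9 were called the same way, Bhlhe40 and Hlf were also higher and Nr1d1 also lower. Between diets, 11.6% of all tested genes were higher and 18.3% lower under control antibody, and 13.2% and 16.6% under GCGR antibody. Under control antibody Npas2, Per3 and Dbp were called in 10 of 18, 11 of 19 and 14 of 19 limma alternatives. Per2 rose by 1.07 and 1.53 and Clock fell by 0.69 and 0.88 on HFD (control and GCGR antibody). The labels give no time of sampling, and the part of the clock genes in the members' diet differences was not tested. Under the antibody, limma called 0 of 17 clock genes on chow (0 at an unadjusted p under 0.05) and 1 on HFD, Nr1d1, which was lower at -0.60 (adjusted p = 0.0493) and called in 5 of 21 limma alternatives. Under the antibody on HFD, 2.12% of all tested genes were called lower. Of 12 immediate-early genes, 10 were tested and limma called 0 under the antibody on either diet. On each diet 2 had an unadjusted p under 0.05, beside 10.8% of all tested genes on chow and 24% on HFD. The smallest adjusted p on HFD were those of Atf3 (0.51 ± 0.23, adjusted p = 0.176) and Jun (0.92 ± 0.43, adjusted p = 0.196). Between diets, limma called 0 of the 10 under control antibody, with 0 at an unadjusted p under 0.05. Under GCGR antibody 2 were higher on HFD (Atf3 at 0.63 and Klf6 at 0.68) and 3 lower (Egr1 at -1.79, Ier2 at -1.20 and Junb at -1.44). Atf3 and Egr1 were called in 9 and 13 of 21 limma alternatives, and Klf6 was lost without libraries 19 and 20 (adjusted p = 0.0842).

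Markers of other cell types also moved under the antibody, with calls on HFD only. In the antibody comparison on chow, limma called 0 of 49 tested markers from 9 lists. At an unadjusted limma p under 0.05 stood 7 of 49 on chow and 15 of 49 on HFD, beside 10.8% and 24% of all tested genes. On chow, summed stellate and fibroblast markers ran from 76.0 to 82.0 RPKM under control antibody and from 85.8 to 91.4 RPKM under GCGR antibody. The median sum went from 14.1 to 30.6 RPKM for cholangiocyte and from 9.47 to 21.6 RPKM for adipocyte markers. For hepatocyte markers it went the other way, from 52914 to 49392 RPKM. The sums were not tested. With the GCGR antibody on HFD, 3 of 5 tested markers of T and NK cells were higher (Ccl5 at 1.15 ± 0.27, Cd3g and Il2rb). There 5.33% of all tested genes were called higher and 2.12% lower. The summed level of all 9 T and NK markers in the table ran from 3.67 to 4.64 RPKM under control antibody and from 4.74 to 19.7 RPKM under GCGR antibody. Of 11 macrophage, 8 endothelial and 8 stellate and fibroblast markers tested, 1 of each was called: Cd14, Lyve1 and Lum, all higher. Of 6 hepatocyte markers 1 was called, Alb, which was lower at -0.37. Others of these lists went the other way uncalled, such as Clec4f (macrophage, mean 24.1 to 18.9 RPKM) and Hnf4a (hepatocyte, 117 to 128 RPKM). Summed macrophage markers ranged from 71.6 to 127 RPKM and from 70.0 to 115 RPKM in the same groups. Summed stellate and fibroblast markers ranged from 82.5 to 132 RPKM (median 89.8) and from 78.9 to 181 RPKM (median 124.6) there. No marker was at 0 in every library, and 5 of the 9 T and NK markers in the table had a mean under 0.5 RPKM. Without libraries 19 and 20, a choice made after seeing the data, Pde4b and Crem differed by -0.84 and -0.58 on HFD. That fit does not separate cell types, and the part of other cell types in the falls of Pde4b and Crem was not tested.

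Markers moved in the diet comparisons too, in part of the same kinds. Under control antibody both tested adipocyte markers, Fabp4 and Cfd, were higher on HFD, and the list summed to 7.80 to 12.8 RPKM on chow and 19.2 to 107 RPKM on HFD, while Adipoq, Lep and Plin1 had means under 0.5 RPKM. Also under control antibody, the hepatocyte marker Ttr and the endothelial marker Lyve1 were higher. Cps1 and Hnf4a of the hepatocyte list and Cd4 of the T and NK list were lower. Under GCGR antibody Fabp4 and 5 of 8 stellate and fibroblast markers were higher. Of 11 macrophage markers, 4 were lower and 1, Ccr2, was higher. The T and NK markers Ccl5 and Cd3g and the endothelial Lyve1 were also higher there. Endothelial Cdh5 and Kdr, hepatocyte Cps1 and cholangiocyte Sox9 were lower. In these comparisons 11.6% and 13.2% of all tested genes were higher and 18.3% and 16.6% lower (control and GCGR antibody). The part of these cell types in the diet differences of Prkaca, Prkar1a, Pde4d, Pde4b and Crem was not tested.

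Variation within groups was compared between genes. After subtracting group means of log2(RPKM + 1), the closest pair over the 23 libraries was Gnas and Prkaca (Pearson r = 0.76), followed by Prkar1a and Sik1 (0.52). Pde4b and Crem, which both fell under the antibody, had r = 0.29. Among 10262 other genes with a mean of at least 1 RPKM, those most like Gcgr were Dhrs3, Galt and Proser2 (r = 0.75, 0.74 and 0.73). Those most like Pde4b were Mphosph10, Ugt2b35 and Otc (0.72, 0.71 and 0.68), and those most like Crem were Btg1, Net1 and Mreg (0.77, 0.77 and 0.75). These values describe shared variation within groups, and the points share libraries and depth. Of the 3 genes most like Pde4b, Mphosph10 and Ugt2b35 were called higher under the antibody on HFD, at 0.39 ± 0.06 and 0.73 ± 0.12, where Pde4b was lower.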

How the data were processed

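Liver RNA was measured in 23 libraries. Per the labels' protocols, the authors made strand-specific mRNA libraries with a KAPA kit and sequenced single reads on an Illumina HiSeq. The submitters' processing notes name bcl2fastq 2.17, FastQC and the build GRCm38. Which aligner, counter, strand setting and gene annotation were used is not stated there (not given in the sources used here). A single RPKM table of 24475 genes was deposited by the authors, and 0 of its columns stayed unmatched to a sample. In 233 genes some values lie above 0 but under 1e-06, which whole reads cannot give, so reads were shared between genes by weights. No member has the same values as another gene.

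RPKM are not counts, so limma 3.58.1 (R 4.3.3) was fitted to log2(RPKM + 1), which understates the change of low genes. Genes needed 0.5 RPKM in at least 5 libraries. The model had 4 group means over all libraries and a mean-variance trend. The tests were 2-sided, and p values were adjusted by Benjamini and Hochberg over 11939 genes. The 5 contrasts were the antibody effect on each diet, their difference, and the diet effect under each antibody. Alternatives were a pseudocount of 0.1, no filter and a filter at 1 RPKM, median-ratio and quantile scaling, fits of the contrast's groups alone, 2 other variance models, leaving out each library, and exact rank-sum tests. Leaving out libraries 19 and 20 together was chosen after seeing the data. The pipeline was tested on simulated data.

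Depth was estimated from 1670 low genes, 86.9% of whose values lay within 0.1 of a whole multiple of a single read, with lengths from 830 genes of a single transcript. It gives precision by counting error only, and no counting intervals were computed from it. Figures were drawn and tables made with numpy 2.4.6, pandas 2.3.3 and scipy 1.17.1.

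The members and the gene lists were chosen with earlier results of these data known. Text names all members, the called genes of each pathway list (the 2 with the smallest adjusted p on HFD where none was called) and the 3 genes most like Gcgr, Pde4b and Crem. For the diet comparisons many called list genes are named without values.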

Additional observations from a re-analysis of the deposited data

Results flagged for a closer look

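In 40 groups of libraries (10 genes by 4 groups), a library was checked for standing apart from the rest of its group, by Dixon's test at the 95% level. Chance marks about 1 in 20 groups, and 5 of 40 were marked. Gcgr was high in library 1 of control antibody on chow, at 117 RPKM where the next library had 106 RPKM. Prkar1a was high in library 20 of GCGR antibody on HFD, at 33.7 RPKM where the next had 29.04 RPKM. Without that library the antibody difference of Prkar1a on HFD was -0.16 with an adjusted limma p of 0.0592, and it stayed uncalled. Pde4d was high in library 9 of GCGR antibody on chow, at 1.05 RPKM where the next had 0.692 RPKM. Pde3b was low in library 4 of control antibody on chow, at 12.5 RPKM where the next had 13.3 RPKM, in a group with a narrow spread. Crtc2 was high in library 13 of control antibody on HFD, at 10.4 RPKM where the next had 9.26 RPKM. Neither Pde4b nor Crem had a library that stood apart in this way in any group.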

How the results depend on the processing

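The antibody calls of Pde4b and Crem were kept under each limma alternative run, and no alternative called a member for the difference of antibody effects. The HFD antibody count was 3 after median-ratio scaling, through Prkar1a. Between diets under GCGR antibody the count was 5 in the other limma alternatives, 6 without library 6 or library 20, through Sik1, and 4 by exact rank-sum tests. Exact rank-sum tests, adjusted over all genes, called 0 members on chow and 0 on HFD. Between diets under control antibody, 3 members were called after quantile normalization and 3 by exact rank-sum tests, and leaving out single libraries gave 2 to 5, with 2 without library 3, 4 or 12. Directions turned only in members that were not called and lay near 0. Median-ratio scaling gave -0.05 for Gcgr under the antibody on HFD and -0.01 for the Sik1 difference of antibody effects. Quantile normalization gave 0.02 for Gnas under the antibody on HFD, -0.02 for the Sik1 difference, and -0.06 for Gcgr and -0.01 for Pde3b between diets under GCGR antibody. A pseudocount of 0.1 gave 0.0 for the Sik1 difference. Without libraries 19 and 20, the antibody difference on HFD was 0.03 for Pde3b and 0.08 for Crtc2, and the difference of antibody effects was -0.03 for Sik1, -0.04 for Pde4d and 0.07 for Pde3b. Leaving out single libraries, the antibody effect on chow ran from -0.02 to 0.02 for Prkaca and -0.09 to 0.02 for Pde3b. On HFD it ran from -0.07 to 0.03 for Crtc2, -0.01 to 0.02 for Gcgr and -0.08 to 0.02 for Pde3b. The difference of antibody effects ran from -0.08 to 0.09 for Sik1, -0.06 to 0.0 for Prkar1a, -0.07 to 0.06 for Pde3b and -0.06 to 0.0 for Prkaca. The diet effect on Pde3b ran from -0.02 to 0.05 under control antibody and from -0.05 to 0.08 under GCGR antibody. Of 2640 single-gene values, 2320 kept direction and call, 265 lost a call, 5 gained it and 50 turned. Followed were the members and, per comparison, the pathway genes called in the main fit. Only uncalled members could gain a call, so the lost and gained counts are not comparable. No paired analysis was possible because the groups share no replicate numbers. Depth limits Pde4d, Kiss1 and other genes near 1 RPKM the most.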
